A study of Mus musculus with 4 samples.

Results

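Lipid droplet proteins and lipolysis genes were described in liver RNA of mice with and without hepatocyte LPIAT1, on chow and on high fat diet (HFD). The 10 genes Plin2, Plin3, Plin5, Cidea, Cideb, Cidec, Pnpla2, Pnpla3, G0s2 and Hsd17b13 were taken by symbol, through the transcript that each probe is designed to, and 15 of the 56605 probes match them, or 10 of the 23462 genes that have a named probe. LPIAT1, encoded by Mboat7, puts arachidonic acid onto lysophosphatidylinositol. F/F mice carry the floxed Lpiat1 alleles without Cre, and LKO mice carry the same alleles with Alb-Cre, whose albumin promoter is active in hepatocytes, so other liver cells of LKO mice keep the gene. All were male, on the C57BL/6 background and 24 weeks old, and received chow (CE2) or HFD for 18 weeks from 6 weeks of age. Each of the 4 combinations of genotype and diet was measured on 1 one-colour Agilent array, and neither the labels nor the methods say whether an array holds RNA of 1 mouse or of several. No difference given here has a replicate check, and no p-value can be given.

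Hepatocytes keep triglyceride in droplets, a core of neutral lipid under a single phospholipid layer. The layer carries perilipins, which shield the core, and CIDE proteins, which pass lipid from smaller to larger droplets. Adipose triglyceride lipase (ATGL, the product of Pnpla2) starts the breakdown of the core, and the protein G0S2 inhibits it. The arrays measure RNA, and neither the amount nor the activity of these proteins was measured with them.

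The signal is the background-subtracted brightness of a spot, and the level is log2 of the signal relative to the 75th percentile of its array. Differences are taken between arrays for the same probe. The summed level of a list adds probes of unlike brightness, so its brightest probes weigh most. A difference of 1 in level is 2-fold. Spots printed repeatedly on the same array gave a technical SD of 0.089 (log2) for the difference of 2 spots of a bright probe (296 probes), and the scanner software assigned an error of 0.20 to a difference between 2 arrays for the bright members. The technical spread and technical SDs named below are the first of these, which holds no variation between arrays. Neither includes the variation between mice. Array values follow the same order throughout, with chow before HFD and, within a diet, F/F before LKO. Albumin and the other 8 hepatocyte markers were well above background on all 4 arrays, as were 9 of the 10 genes described here. The single probe of the targeted gene Mboat7 gave signals of 1102, 861, 1181 and 1100, a log2 difference of -0.30 in LKO on chow and -0.27 on HFD, and where this probe lies relative to the deleted exons was not determined.

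**Figure D1:**
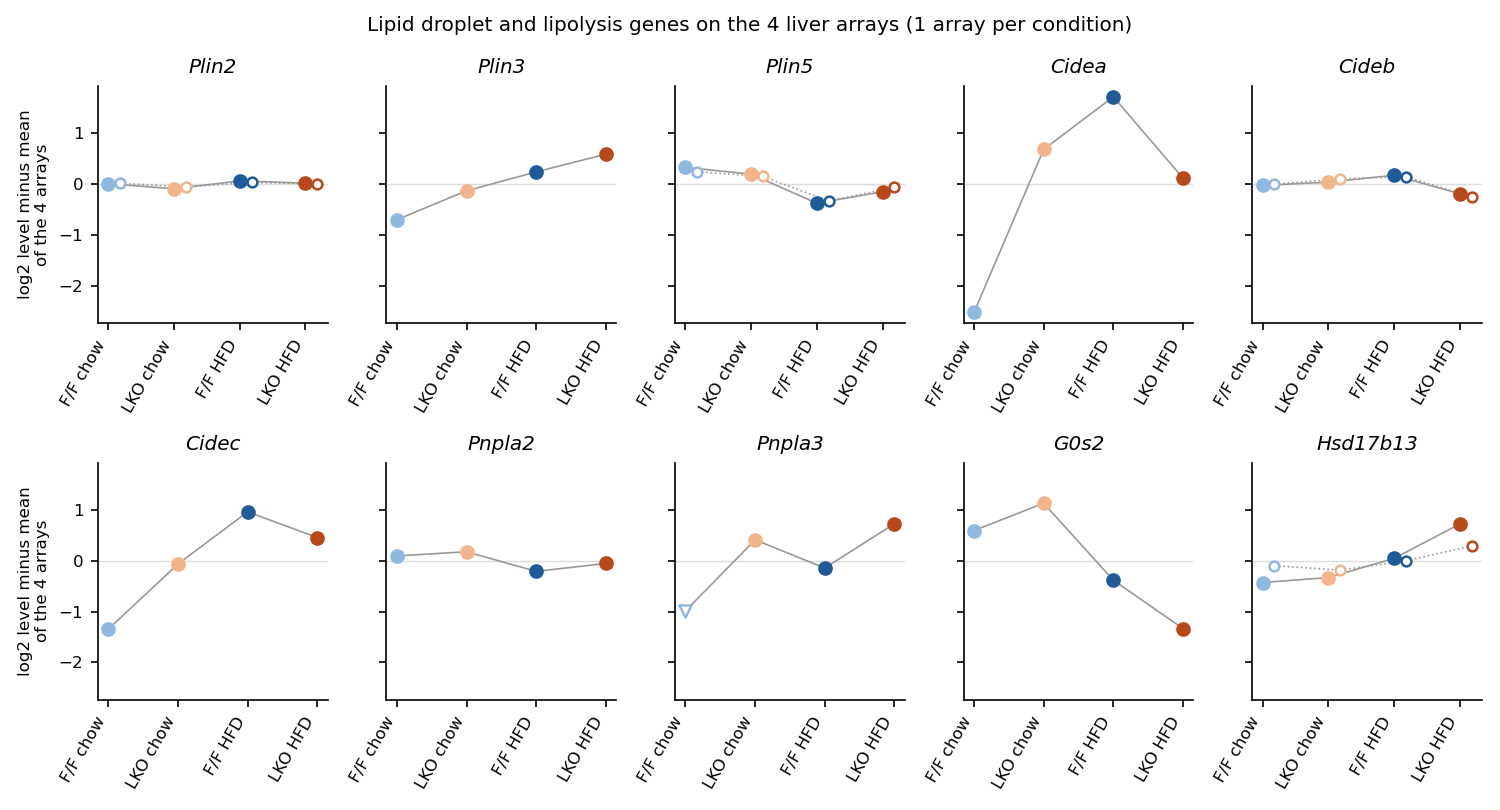
Level of each of the 10 genes on the 4 arrays (x axis, 1 array per condition), as log2 level minus the mean of the 4 arrays (y axis). Filled circles are the brightest probe of a gene, open circles a second probe, and the open triangle a signal not well above background. The second probe of Pnpla3 is left out. Cidea spanned 4.24 and Plin2 0.16 on this scale.

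The sequence just upstream of the outermost annotated start is shown for Cidec, G0s2, Plin3 and Hsd17b13, because these 4 genes had wide ranges, each with its own order of the arrays or its own size, and their promoters can be set side by side. Sequences are RefSeq, build GRCm38.p6, written 5′ to 3′ on the strand of the gene, 250 bases each, and capitals mark a match to a searched motif.
Cidec, chr6:113435761-113436010, minus strand: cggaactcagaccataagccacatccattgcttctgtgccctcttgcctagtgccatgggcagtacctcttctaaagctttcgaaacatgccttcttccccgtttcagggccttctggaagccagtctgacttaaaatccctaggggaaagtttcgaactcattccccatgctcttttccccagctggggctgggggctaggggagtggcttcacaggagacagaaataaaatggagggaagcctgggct
G0s2, chr1:193273189-193273438, minus strand: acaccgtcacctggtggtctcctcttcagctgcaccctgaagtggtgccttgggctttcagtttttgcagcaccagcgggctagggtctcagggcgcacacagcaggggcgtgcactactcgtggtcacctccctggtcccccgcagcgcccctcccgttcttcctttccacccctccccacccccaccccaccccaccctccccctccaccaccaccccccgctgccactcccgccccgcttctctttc
Plin3, chr17:56290512-56290761, minus strand: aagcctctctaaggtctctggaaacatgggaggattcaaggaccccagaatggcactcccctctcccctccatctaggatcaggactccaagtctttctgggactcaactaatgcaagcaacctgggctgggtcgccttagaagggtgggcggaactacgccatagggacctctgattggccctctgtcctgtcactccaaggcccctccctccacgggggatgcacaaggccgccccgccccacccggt
Hsd17b13, chr5:103977389-103977638, minus strand: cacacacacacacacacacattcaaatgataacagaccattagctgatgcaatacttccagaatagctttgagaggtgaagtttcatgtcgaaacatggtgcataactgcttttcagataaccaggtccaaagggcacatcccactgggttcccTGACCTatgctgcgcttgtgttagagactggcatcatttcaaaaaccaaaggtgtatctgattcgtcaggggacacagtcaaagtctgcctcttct
Windows of 9 of the 10 genes were used, and Cidea was the gene left out. Both strands of the 250 upstream bases were searched for AGGTCA (a nuclear receptor half-site), for a pair of AGGTCA 1 base apart (the spacing bound by PPAR with RXR), for CACGTG (an E-box), for TCACNCCAC (a site of SREBP) and for TATAAA. The half-site AGGTCA was in 3 of the 9 genes (Plin2, Plin5 and Hsd17b13) and in 13.8% of 27025 genes with a window. In Hsd17b13 it lies on the opposite strand and is the run in capitals. TATAAA was in 1 of the 9, Cideb, against 13.0% of all. The pair of AGGTCA (0.037% of all genes), CACGTG (6.04%) and TCACNCCAC (1.03%) were in 0 of the 9 windows. These are matches of letters, and none was tested for binding.

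Of the 10 genes, Cidea had the widest range over the arrays, followed by G0s2 and Cidec among the genes above background everywhere. Plin3 and Hsd17b13 varied less, and both were highest in LKO on HFD. Plin2, Pnpla2 and Cideb stayed within a log2 range of 0.38. Cidea, Cidec and G0s2 were each higher in LKO than in F/F on chow and lower in LKO than in F/F on HFD.

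Cidea, which drives droplet fusion and is a gene of brown fat that steatotic liver can also express, had signals of 296, 2619, 6616 and 2456. Its levels were 0.42, 3.62, 4.65 and 3.05. F/F chow stood far below the other 3 arrays, F/F HFD was the highest, and the neighbours in this order differed by 0.56 or more, beyond the technical spread. In F/F the level was 4.24 higher on HFD than on chow, 18.8-fold, the fifth highest of 15358 genes. In LKO the diet difference ran the other way, -0.56. LKO was 9.20-fold higher than F/F on chow (log2 difference 3.20, the fifth highest of 14981 genes) and 3.03-fold lower on HFD (-1.60). The genotype differences on the 2 diets have no array in common, while the chow comparison and the diet comparison in F/F share the F/F chow array. The genotype difference on HFD minus that on chow was -4.80, the lowest of the 13981 genes measured on all 4 arrays, whose central 95% lay between -0.91 and 0.99. Only 3 of these genes (0.0215%) were at least 2-fold higher in LKO on chow and at least 2-fold lower on HFD, and Cidea was the only droplet gene among them. The others were Grin3b and Slc13a4.

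Cidec, whose mouse product (FSP27) sits at droplet contact sites and enlarges droplets, had signals of 2533, 5913, 14846 and 11758, at levels of 3.51, 4.79, 5.82 and 5.31. All 4 arrays were separated by 0.50 or more, with F/F chow lowest and F/F HFD highest. The HFD level exceeded the chow level by 2.30 in F/F (4.94-fold) and by 0.52 in LKO. LKO was 2.43-fold higher on chow (1.28) and 1.42-fold lower on HFD (-0.50). The difference between the diets was -1.78, which was 43rd from the bottom of the 13981 genes.

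Cideb, the CIDE protein of hepatocytes that also takes part in loading very low-density lipoprotein, did not follow the other 2. Its bright probe gave 18567, 18655, 25288 and 22092. On the level scale neighbours in the order F/F HFD, LKO chow, F/F chow and LKO HFD differed by 0.16 or less, so the order of neighbours is not resolved, and the 2 HFD arrays at its ends differed by -0.36 in LKO. The dimmer probe of Cideb gave -0.40. On chow the genotype difference was 0.06, and its sign changed with normexp background correction.

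**Figure D2:**
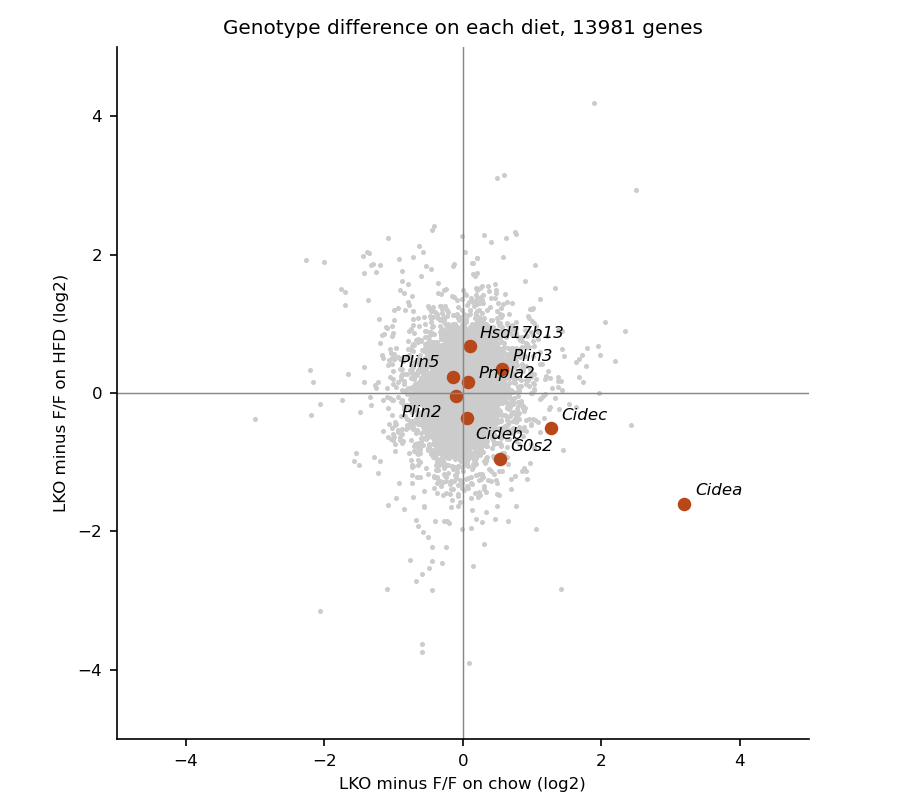
Genotype difference on chow (x axis, log2, LKO minus F/F) against that on HFD (y axis, log2), for the 13981 genes measured on all 4 arrays (grey) and 9 of the 10 described genes (orange). The 2 axes share no array. Cidea lies alone at 3.20 and -1.60, and Cidec and G0s2 lie in the same lower right part of the plot.

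Among the lipolysis genes, Pnpla2, whose product ATGL takes the initial fatty acid off triglyceride, was nearly level. Its signals were 4728, 4813, 4548 and 5688, and its levels 4.41, 4.50, 4.11 and 4.27. Both HFD arrays were below both chow arrays, by -0.30 in F/F and by -0.23 in LKO, while LKO and F/F differed by 0.08 on chow and 0.15 on HFD, within 2 technical SDs. The size of the diet differences depended on the scaling. In the deposited table without scaling they were -0.17 and -0.08, also within 2 technical SDs.

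G0s2, the inhibitor of ATGL, varied far more than the lipase. Its signals were 5188, 7243, 3133 and 1821, at levels of 4.55, 5.09, 3.57 and 2.62. Both chow arrays were above both HFD arrays, with neighbours at least 0.54 apart. HFD minus chow was -0.97 in F/F and -2.46 in LKO (5.51-fold lower, 61 from the bottom of 15242 genes). LKO was 1.45-fold higher than F/F on chow (0.54) and 1.93-fold lower on HFD (-0.95). The genotype difference on HFD minus that on chow was -1.49, 85 from the bottom of the 13981 genes.

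Pnpla3, a patatin-like lipase of droplets that rises with feeding, was close to background. Its brighter probe gave 5.09, 12.9, 10.8 and 22.3, and the F/F chow signal was not well above background. LKO was 1.83-fold higher on HFD (0.87), but with normexp background correction this was 0.08. On chow, LKO was at least 1.72-fold higher, and in F/F the HFD signal was at least 1.17-fold higher. With normexp the chow bound was a log2 difference of 0.19 in place of 0.78. The second probe was well above background on the LKO chow array alone. For spots not well above background, the SD of a difference of 2 spots was 0.59, so no order of these arrays is drawn.

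The perilipins differed from each other. Plin2, the main perilipin of hepatocyte droplets, was flat on this scale, with signals of 33506, 30092, 41347 and 45011 and levels of 7.24, 7.14, 7.30 and 7.25. No 2 arrays differed beyond 2 technical SDs, and the second probe spanned 0.09. Its higher raw signals on HFD went with brighter HFD arrays, whose 75th percentile was 263 in F/F and 296 in LKO against 222 and 213 on chow. The flatness depended on the scaling. With quantile normalization, which gives every array the same distribution of values, HFD exceeded chow by 0.21 in F/F and by 0.39 in LKO.

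Plin3, which moves from the cytosol onto droplets as they grow, had signals of 1984, 2828, 4516 and 6454, and levels of 3.16, 3.73, 4.10 and 4.45. Each array was above the one before it in this order, by 0.57, 0.37 and 0.35. LKO was above F/F on chow (0.57) and on HFD (0.35), and HFD was above chow in F/F (0.94, 1.92-fold) and in LKO (0.72). Plin3 was the only one of the 10 to lie higher beyond 2 technical SDs in all 4 comparisons. Its genotype difference on HFD (0.35) was within 2 of the software errors of 0.20.

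Plin5, which ties droplets to mitochondria and binds ATGL, went the other way with diet. Its bright probe gave 23332, 20422, 16977 and 22292, at levels of 6.72, 6.58, 6.01 and 6.24. HFD was below chow by -0.71 in F/F and by -0.34 in LKO, and the second probe gave -0.57 and -0.21. With quantile normalization the bright probe gave -0.51 and -0.16. The chow arrays differed by -0.14 between the genotypes, within 2 technical SDs, and LKO was higher on HFD by 0.23 (second probe 0.27). Plin5 and Plin3 lie on the same chromosome with 9 annotated genes between them.

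Hsd17b13, a droplet-bound dehydrogenase of hepatocytes, had signals of 5518, 5682, 9092 and 16332, and levels of 4.64, 4.74, 5.11 and 5.79. The chow arrays were within 2 technical SDs of each other (0.10), and LKO HFD was the highest. LKO exceeded F/F by 0.68 on HFD (1.60-fold), and HFD exceeded chow by 0.47 in F/F and by 1.05 in LKO (2.07-fold). The second, much dimmer probe gave 0.29, 0.10 and 0.48 for the same comparisons, and over the mean of both probes the diet difference in LKO was 0.76, under 2-fold. For 2 probes of a gene well above background, the diet differences in LKO disagreed with an SD of 0.41 over 4912 genes.

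**Figure D3:**
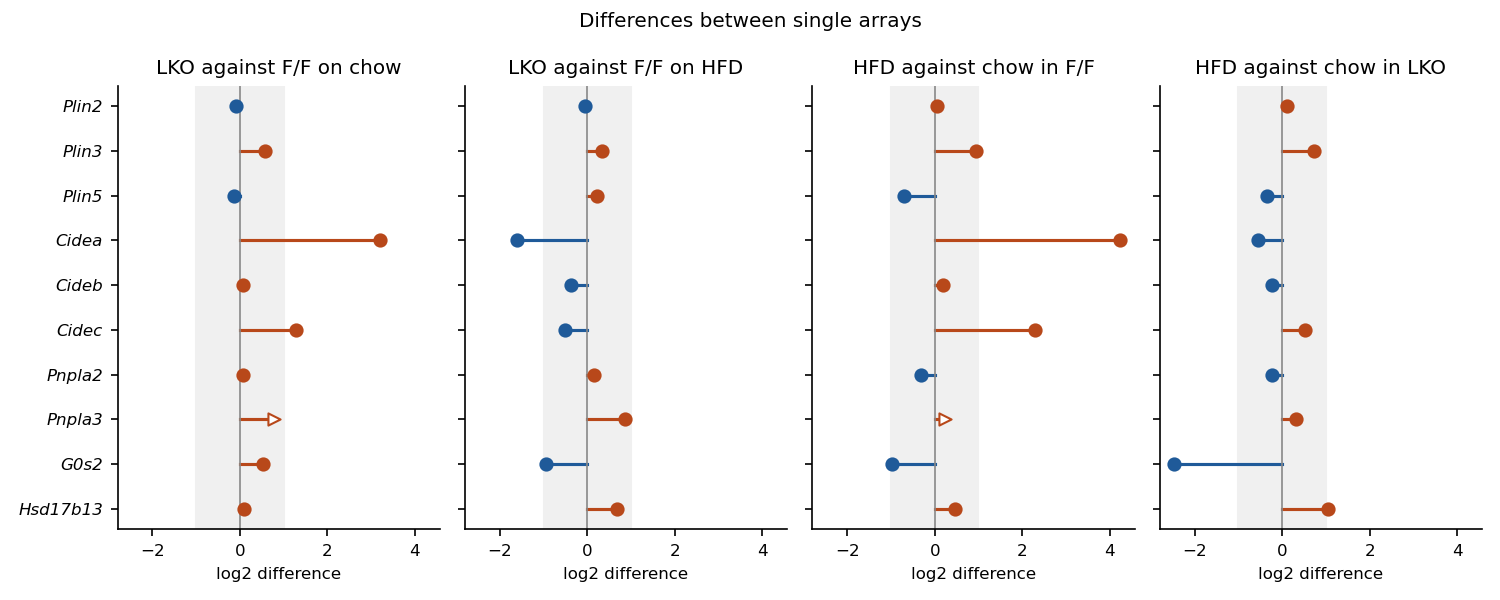
Log2 difference (x axis) of each gene (y axis) in the 4 comparisons, between single arrays. Circles were measured on both arrays, open triangles are bounds, and grey marks less than 2-fold. Cidea and Cidec lie beyond it to the right on chow and with HFD in F/F, and G0s2 to the left with HFD in LKO.

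Counted at 2-fold, 2 of the 10 genes were higher in LKO on chow (Cidea and Cidec) where 1.11% of 14981 genes were, and 0 were lower where 1.03% were. On HFD, 0 were higher in LKO (2.36% of 15528 genes) and 1, Cidea, was lower (1.91%). HFD gave 2 higher in F/F, again Cidea and Cidec (5.21% of 15358 genes), and 0 lower (2.94%). In LKO, HFD gave 1 higher, Hsd17b13 (8.12% of 15242 genes), and 1 lower, G0s2 (4.07%). The counts are small and the comparisons share arrays in pairs. The median over the 10 genes was 0.32 in LKO on chow, where the median of all genes was 0.00, and 0.05 on HFD, where it was -0.03. With diet it was 0.21 in F/F (all genes -0.02) and -0.06 in LKO (all genes -0.07).

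The other 19 droplet proteins examined with them differed less. None had a value of 2-fold or more in any comparison. Plin1 with HFD in F/F was a bound, at least 1.93-fold lower, which does not settle whether it passed 2-fold. It had no value in LKO on HFD or with HFD in LKO. The medians of the list were 0.03 in LKO on chow, -0.11 in LKO on HFD, -0.12 with HFD in F/F and -0.29 with HFD in LKO. The 15 genes of droplet formation and triglyceride storage, among them the acyltransferases Dgat1 and Dgat2 and the seipin gene Bscl2, also held 0 genes past 2-fold, with medians of 0.05, -0.15, 0.09 and -0.22 in the same order. On HFD, 13 of these 15 were lower in LKO, where 54.1% of all genes were.

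Of 22 other lipases and their partners, 8 were higher and 14 lower in LKO on HFD (median -0.31), where 54.1% of all genes were lower, and 9 and 13 on chow (-0.04), where 49.3% were lower. With HFD, 14 were lower in F/F (median -0.28, 52.2% of all genes) and 17 in LKO (-0.54, 56.5% of all genes). Lpl, the lipase that frees fatty acids from circulating lipoproteins, was the only one 2-fold higher, at 446, 463, 976 and 2828, with 1.37 in LKO on HFD, 0.88 with HFD in F/F and 2.14 in LKO. Ces2a, a carboxylesterase, was at 6175 and 5051 on the chow arrays and at 2070 and 1415 on the HFD arrays, with diet differences of -1.82 and -2.31. The diet difference of Ces1e in LKO was -1.04, against -0.31 in F/F. Abhd5, the coactivator of ATGL, differed by -0.11 on chow and 0.06 on HFD between the genotypes.

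Of 16 regulators of droplet genes, 15 were lower in LKO on HFD (median -0.30, against 54.1% of all genes), 0 of them 2-fold, and 8 were lower and 8 higher on chow (median -0.05). Pparg, the nuclear receptor that activates Cidea and Cidec in fat cells, was the only regulator past 2-fold. Its signals were 815, 1659, 2619 and 2207. LKO exceeded F/F by 1.08 on chow and was at -0.41 on HFD, and HFD exceeded chow by 1.44 in F/F and was at -0.06 in LKO. F/F chow was the lowest array and F/F HFD the highest, as for Cidea and Cidec. The part of Pparg in their values was not tested.

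**Figure D4:**
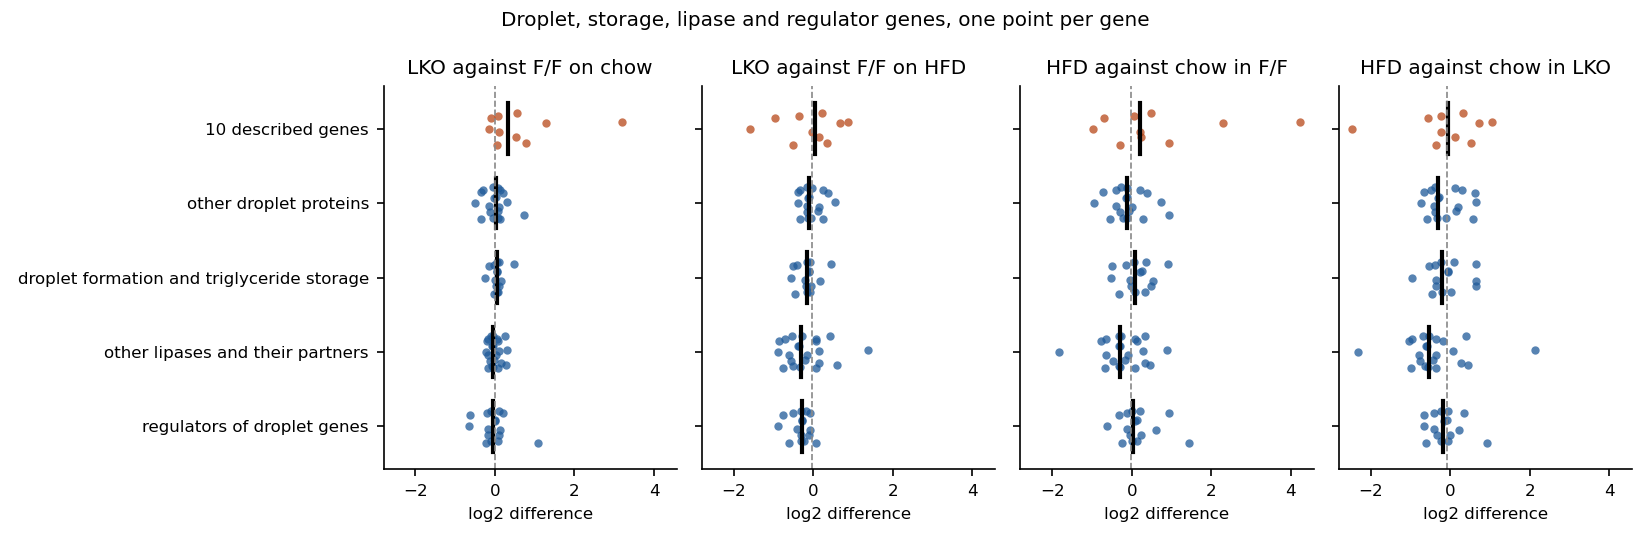
Log2 differences (x axis) of the 10 described genes (orange) and of the genes of 4 related lists (blue, y axis), 1 point per gene with bounds at their bound. Black bars are list medians and the dashed line is the median of all genes. On HFD in LKO the medians of the lipases (-0.31) and the regulators (-0.30) lie left of it, with Lpl at 1.37 on its right.

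Markers of other cells and states also differed between these arrays. Cidea, Cidec and Plin5 are also expressed in fat cells. Of 13 adipocyte markers, Plin1 was well above background on F/F chow alone, where Cidea was lowest, and Adipoq was also brightest there, at 69.6 against 32.2, 26.1 and 45.5. Plin4 and Fabp4 of the list ran with Cidea in part. Plin4 was at 0.74 in LKO on chow and at 0.93 with HFD in F/F, where Fabp4 was at 1.02. Unlike Cidea, Plin4 and Fabp4 were at 0.38 and 0.26 in LKO on HFD. With HFD in LKO they were at 0.56 and 1.34, and Fabp4 was at -0.06 in LKO on chow. In LKO on chow, 4 markers were higher and 7 lower (median -0.06), where 50.7% of all genes were higher. In LKO on HFD, 7 were higher and 3 lower (median 0.19, against 45.9% of all genes higher). With HFD in F/F, 6 were higher and 5 lower (median 0.13, against 47.8% of all genes higher). Retn was at -2.44 with HFD in F/F, where Cfd was at 1.76 and Cd36 at 1.73, and Cfd was at -3.90 in LKO on HFD, where Cidea was lower too. Ucp1 was at least 3.73-fold lower in LKO on chow than in F/F. Acvr1c and Slc7a10 were not well above background on any array. The summed level of the list, on a linear scale with the 75th percentile at 1, was 337, 316, 397 and 207. Car3, which hepatocytes also express, made up 314, 287, 343 and 164 of it, and without Car3 the sum was 23.3, 28.4, 54.1 and 43.0.

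Of 12 macrophage markers, 10 were higher in LKO on HFD (median 0.53), where 45.9% of all genes were higher. With HFD, 10 of 12 were higher in F/F (median 0.39, against 47.8% of all genes) and 10 of 12 in LKO (median 0.95, against 43.5%). Trem2 was at 36.7 and 54.3 on the chow arrays and at 353 and 1871 on the HFD arrays, and Gpnmb, not well above background on either chow array, reached 106 and 651. Cd9 and Cd68 were also higher, and Marco was lower, with -1.64 in LKO on HFD. The summed level of the list was 82.6, 74.2, 96.0 and 110. All 9 hepatocyte markers were lower on HFD in both genotypes, with a median of -0.31 in F/F mice and of -0.52 in LKO mice, where 52.2% and 56.5% of all genes were lower, and their summed level was 4379, 4464, 3483 and 3141. Cps1, the entry enzyme of the urea cycle, was at -1.11 and -1.03. Between the genotypes on HFD, 7 of the 9 hepatocyte markers were lower in LKO (median -0.16), where 54.1% of all genes were. In bulk RNA, fewer cells of a type and less RNA per cell cannot be told apart. The part of these cells in the values of Lpl, Plin3 and the other genes was not tested.

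Genes of feeding state and of the clock differed between the arrays as well. Of 10 genes raised by fasting, 3 were at least 2-fold lower with HFD in F/F, where 2.94% of all genes were. They were Pdk4 (-2.24), Cyp4a10 (-1.67) and Cyp4a14 (-1.24), and in LKO the same differences were -0.37, -0.47 and -0.37. On chow, the signal of Pdk4 was 1709 in F/F and 821 in LKO. Of 10 genes raised by feeding, 9 were higher with HFD in F/F (median 0.29, against 47.8% of all genes) and 6 in LKO (0.18, against 43.5%), and 0 reached 2-fold. The clock gene Arntl and its target Dbp set the F/F HFD array apart, with signals of 145, 102, 31.0 and 178 for Arntl and 6034, 6093, 14397 and 6921 for Dbp. The globin gene Hba-a1 was also brightest there, with 39794 against 14626 to 22589. The genotype difference on chow, which does not use that array, was 3.20 for Cidea, 1.28 for Cidec and 0.54 for G0s2. Arntl, Dbp and Hba-a1 differed by -0.45, 0.07 and -0.02 in it. Genes of feeding state differed in it too. Of the 10 genes raised by feeding, 7 were higher in LKO on chow (median 0.28), where 50.7% of all genes were. Of the 10 raised by fasting, 7 were lower (median -0.13, against 49.3% of all genes), and 1 of them, Pdk4, was at least 2-fold lower. The pancreatic amylase gene Amy2a5 was brightest on the LKO HFD array, with 2771, 1788, 1553 and 7177 (2.04 in LKO on HFD and -0.58 on chow). It was not alone, since Cela3a, Cpa1, Pnlip and Try4 were among the 16 of 13981 genes at least 2-fold lower in LKO on chow and at least 2-fold higher on HFD. The part of feeding, time of day, blood or pancreatic RNA in the values of the 10 genes was not tested.

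For the 3 genes with the widest range, the genes with the most similar 4-array profile were sought among 13980 others, by the root mean square distance of centred levels. Those nearest to G0s2 were Dct (0.09), Whrn (0.09) and Olfr806 (0.14), and those nearest to Cidec were Iqcg (0.17), Mmd2 (0.21) and Gdf15 (0.21). Nothing lay that close to Cidea. Its nearest were Themis (0.71), Cidec (0.81) and Mogat1 (0.82). Mogat1, which makes diacylglycerol for triglyceride synthesis, had signals of 169, 353, 1298 and 986. The distances were not divided by the range of a gene, which is widest for Cidea. Some of these neighbours were dim, with Whrn at 8.59 and Olfr806 at 17.5 on LKO HFD and Themis at 18.9 on F/F chow. With 4 arrays and 13980 profiles, a short distance is a description.

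**Figure D5:**
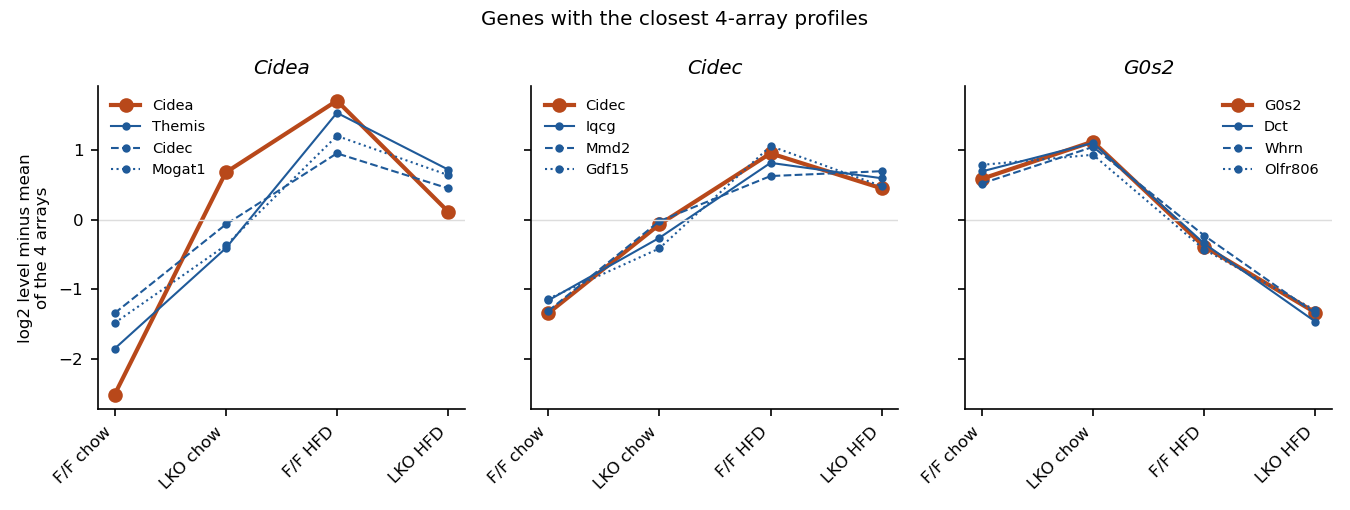
Log2 level minus the mean of the 4 arrays (y axis) on the 4 arrays (x axis) for Cidea, Cidec and G0s2 (orange) and the 3 genes nearest to each (blue). By root mean square, the blue profiles lie within 0.14 of G0s2 and within 0.21 of Cidec, and those around Cidea stand apart by 0.71 or more.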

How the data were processed

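Liver RNA was measured on 4 Agilent SurePrint G3 mouse arrays, 1 per condition, on 1 slide in 1 scan. Groups follow the labels, which name another RNA kit and housing temperature than the methods. The authors deposited spot intensity from Agilent Feature Extraction 12.0.3.1, background-subtracted and not normalised between arrays, and a table that multiplies each array by 1 factor (2.10 to 2.63). The intensity in that table, per the file headers and values, served as an alternative.

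The 75th percentile of each array over non-control spots was subtracted after log2 (Python 3.11.15, pandas 2.3.3, numpy 2.4.6). Repeat spots were averaged without outliers. Of 56605 probes, 33767 (59.7%) matched a RefSeq symbol of GRCm38.p6, and the brightest probe stood for a gene. A probe not well above background on 1 array gave a bound against the higher of its own signal and the lowest signal well above background (7.80 to 8.35). Between 53.0% and 57.0% of spots were well above background, which takes the place of depth, and the number of arrays limits the precision. The steps were checked on simulated data. Alternatives included normexp (limma 3.58.1, R 4.3.3, offset 50). From each other list, up to 5 genes past 2-fold in any comparison were named, largest first, and the 3 nearest profiles of the 3 widest genes. Arntl, Dbp, Hba-a1, Amy2a5 and the other pancreatic genes, Car3, Grin3b, Slc13a4, Abhd5, Plin1, Plin4 and Fabp4 were named after values were seen. The 10 genes and all lists were chosen with earlier results of these data known. Figures used matplotlib 3.10.9.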

Additional observations from a re-analysis of the deposited data

Results flagged for a closer look

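For 3 genes the LKO array was higher than the F/F array on chow and lower on HFD, each difference beyond 2 technical SDs. The genotype difference on HFD minus that on chow was -4.80 (log2) for Cidea, -1.78 for Cidec and -1.49 for G0s2. Whether the diets differ in this was not tested, since each condition has 1 array. Over 9 alternatives these values ranged from -4.84 to -4.55 for Cidea, from -1.82 to -1.71 for Cidec and from -1.53 to -1.42 for G0s2. Plin5 and Cideb also had opposite signs on the 2 diets, with differences between the diets of 0.36 and -0.43, but their chow values were within 2 technical SDs.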

How the results depend on the processing

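Of 396 values of the 10 genes under 10 alternatives, 330 moved by no more than the technical spread, 66 moved and 0 called values changed sign. Counted by gene and comparison, the sign changed under at least 1 alternative in 4 of 40. The values of Cideb and, with its dimmer probe, Hsd17b13 in LKO on chow and of Plin2 in LKO on HFD were small. Pnpla3 with HFD in LKO went from 0.32 to a bound of -0.66 with its dimmer probe and to -0.41 over the mean of its probes. The 2-fold limit was crossed in 4, by Plin3 with HFD in F/F (up to 1.07), Hsd17b13 with HFD in LKO (0.76 over both probes and 0.48 with the dimmer one) and Pnpla3 between the genotypes on both diets. A 1.5-fold limit gave 5 genes with HFD in F/F and 4 for LKO on HFD, where 2-fold gave 2 and 1. A 4-fold limit gave 1 with HFD in LKO, 0 for LKO on HFD and 1 for LKO on chow. The mean of all probes gave 1 with HFD in LKO and 2 for LKO on HFD, and the dimmest probe, chosen after the data were seen, gave 1 with HFD in LKO. Elsewhere the count was within 1.5 times that reported. Normexp lowered the share of all genes past 2-fold most, on HFD to 0.613% higher and 0.555% lower in LKO. The deposited table without scaling moved the median of all genes to 0.11 with HFD in F/F and 0.07 in LKO, and no filter moved it to -0.12 and -0.21. The causes were not tested beyond what the limits themselves set. No paired analysis was possible because each condition has 1 array. Depth is replaced here by signal over background, which limits Pnpla3 alone among the 10.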
